A study of Mus musculus with 10 samples.

Results

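STAT transcription factors and their partner Irf9 were examined in round spermatids, germ cells that have just completed meiosis, after a short heating of the testis. The members were 7 genes taken by symbol (Stat2, Stat3, Stat4, Stat5a, Stat5b, Stat6 and Irf9) out of 55401 genes and 1146 subfamilies of transposable elements (TE) in the deposited count table. Stat2 was chosen because its level varied widely between the libraries at 33 °C and was low in all libraries at 42 °C. Those values chose the gene, so they are given as a description with no test, and the other 6 genes were taken as its family and partner. All 7 passed the filter on low counts.

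The groups were adult male CD1 mice, an outbred stock, whose testes were held at 42 °C for 30 minutes (5 mice) or at 33 °C for 30 minutes (5 mice). All mice, the 33 °C ones included, were under isoflurane, woke up, and were killed for the isolation of the cells. Ribosomal RNA was removed before stranded library preparation, and the 5 libraries of a group are taken as 1 per mouse. The labels name no genetic modification.

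STAT proteins wait in the cytoplasm until a cytokine or interferon binds its receptor. JAK kinases on the receptor then phosphorylate them, and pairs of STATs enter the nucleus and switch genes on. STAT2 acts mainly in type I and III interferon signalling, where it joins another STAT and IRF9, a DNA-binding protein of the IRF family, in the complex ISGF3. That complex binds the interferon-stimulated response element (ISRE), whereas most other STAT pairs bind a palindrome called GAS. In mouse testis STAT4 is known as a STAT of haploid germ cells.

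Library totals ranged from 60623568 to 102086073 counts in the 42 °C group and from 92311183 to 117723075 in the 33 °C group. Replicate 2 at 42 °C was the shallowest and had the largest share of counts on TE, at 16.2%. Summed markers of round spermatids reached 2655 to 3952 CPM (counts scaled to a common library size, with TMM factors) at 42 °C and 2339 to 3754 CPM at 33 °C. Markers of Sertoli cells, the supporting cells of the testis, summed to 10.6 to 27.1 CPM in heated mice against 11.1 to 24.3 CPM at 33 °C. Those of macrophages and leukocytes summed to 8.04 to 11.6 CPM at 42 °C, against 8.32 to 12.05 CPM at 33 °C. Of 20 round spermatid markers 15 had a positive log2 fold change (42 °C minus 33 °C) with a median of 0.31, and of 14 elongating spermatid markers 13 did with a median of 0.36. Over all genes and TE subfamilies tested 48.9% were positive, with a median of -0.010. In edgeR 0 of either list were called, against 0.0922% of all features. The most abundant member of each spermatid list was on the negative side, unlike most of its list. The most abundant members were Odf2 of elongating spermatids, with means of 2561 CPM at 42 °C against 2603 CPM at 33 °C, Zpbp2 of round spermatids, with 309 CPM at 42 °C against 375 CPM at 33 °C, and Syce1 of spermatocytes, with 299 CPM at 42 °C against 345 CPM at 33 °C. In the lists of spermatogonia and of Sertoli, Leydig, stromal, macrophage, endothelial and red blood cells they were Id4, Inha, Cyp17a1, Col3a1, Adgre1, Vwf and Slc4a1, each at 13.6 CPM or less in both group means. As a check of the heating, the inducible HSP70 gene Hspa1a had 1.17 to 3.78 CPM in heated mice against 0.181 to 0.417 CPM at 33 °C. Its near-identical copy Hspa1b had 3.65 to 11.5 CPM, against 1.46 to 3.94 CPM at 33 °C.

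The start regions of the members were searched for binding letters of these factors, because Stat2 stood apart in its level and Stat4 is the STAT of haploid cells. RefSeq start windows (GRCm38.p6, 250 bases before to 50 after the start) were found for all 7 members, 11 windows in all. The motifs, searched on both strands, were the ISRE core (TTTC, any 2 bases, TTTC), GAS as TTCNNNGAA and the heat shock element core GAANNTTC, and no match overlapped another. An ISRE core stood in 2 of the 11 windows, against 3.44% of all 32851 RefSeq windows of the same length. A heat shock element core stood in 1 of the 11, against 7.86% of all windows, and GAS in 0 of the 11, against 8.30%. The 3 windows with a match are shown 5′ to 3′ on the strand of the gene, with the matched letters in capitals. The first is Stat2 (chr10:128270248-128270547, plus strand), whose ISRE core begins 222 bases before the start. The next are both starts of Stat4, with a heat shock element core in the upstream one (chr1:51986898-51987197, plus strand) and an ISRE core on the opposite strand in the downstream one (chr1:52007990-52008289, plus strand).
Stat2: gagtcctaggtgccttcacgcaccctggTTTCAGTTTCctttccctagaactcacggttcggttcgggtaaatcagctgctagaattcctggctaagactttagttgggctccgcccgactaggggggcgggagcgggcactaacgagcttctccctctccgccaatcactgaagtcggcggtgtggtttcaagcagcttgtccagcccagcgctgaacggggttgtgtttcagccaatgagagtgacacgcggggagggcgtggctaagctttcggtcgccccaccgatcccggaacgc
Stat4, upstream start: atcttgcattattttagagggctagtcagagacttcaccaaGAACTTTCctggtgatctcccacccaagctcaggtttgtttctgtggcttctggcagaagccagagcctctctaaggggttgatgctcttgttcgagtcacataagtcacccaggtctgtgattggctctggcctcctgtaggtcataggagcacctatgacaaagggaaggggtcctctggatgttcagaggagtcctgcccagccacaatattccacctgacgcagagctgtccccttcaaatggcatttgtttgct
Stat4, downstream start: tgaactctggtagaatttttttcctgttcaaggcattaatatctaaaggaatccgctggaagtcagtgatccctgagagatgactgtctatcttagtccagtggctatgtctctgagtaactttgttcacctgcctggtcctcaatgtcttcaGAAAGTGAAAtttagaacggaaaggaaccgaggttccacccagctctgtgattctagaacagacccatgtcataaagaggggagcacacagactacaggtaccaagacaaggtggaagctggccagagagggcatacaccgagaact
A match describes these letters and is not evidence of binding.

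Stat2 (ENSMUSG00000040033, chromosome 10, 128270559 to 128292849, plus strand, GRCm38) was low in all 5 heated libraries and in 1 of the 5 at 33 °C, and was well expressed in the other 4 at 33 °C. At 42 °C the counts were 86, 45, 89, 92 and 69 in replicates 1 to 5, which are levels of 0.864, 0.667, 0.882, 1.03 and 0.722 CPM. At 33 °C the counts were 129, 2520, 2647, 5304 and 1291, which are levels of 1.42, 22.8, 26.9, 56.6 and 14.6 CPM. The groups did not overlap, but 33 °C replicate 1 lay close to the 42 °C libraries and 10.2-fold under the next library at 33 °C. Its level was 1.38 times that of the highest library at 42 °C. The exact Poisson intervals, which cover counting error alone, were 1.19 to 1.69 CPM for 33 °C replicate 1 and 0.831 to 1.26 CPM for 42 °C replicate 4, and these overlap. In bulk RNA such as this, fewer cells of a type and less RNA per cell cannot be told apart.

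**Figure D1:**
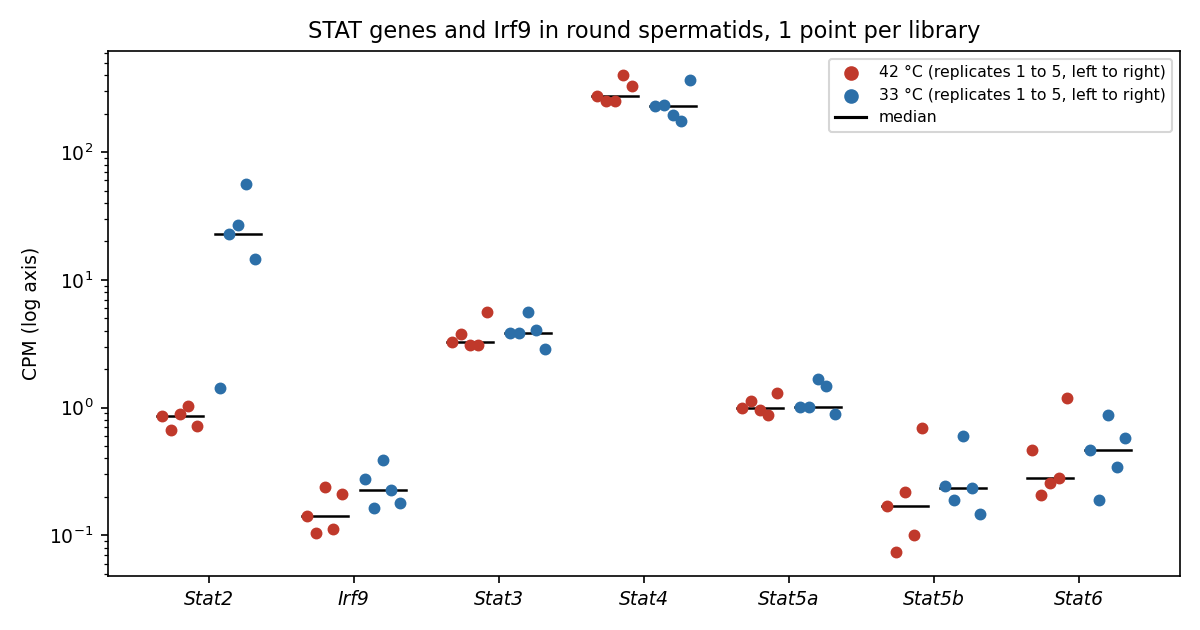
Levels of the 7 members in each library, in CPM on a log axis, with 42 °C libraries in red on the left and 33 °C libraries in blue on the right of each gene, and black bars at the medians. Stat2 runs from 0.667 to 1.03 CPM at 42 °C and from 1.42 to 56.6 CPM at 33 °C, while the groups of every other member overlap.

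Stat2 averaged 0.833 ± 0.143 CPM in heated libraries against 24.4 ± 20.4 CPM at 33 °C (SD, n = 5 each), 29.3-fold lower at 42 °C, and the log2 fold change (42 °C minus 33 °C) was -4.87, or -3.15 with limma voom and sample quality weights. Non-overlapping groups with the 42 °C side lower were found for 0.680% of the 26025 features tested. The 4 higher libraries at 33 °C made most of that mean. At 33 °C the highest library was 39.8-fold over the lowest, and at 42 °C 1.54-fold. Among 15997 genes with a mean of at least 1 CPM at 33 °C the median of this ratio was 1.52, and 99.8% had a smaller one than Stat2. Among 8423 genes with a mean of at least 10 CPM at 33 °C, Stat2 had the third largest ratio, after Neu1, a lysosomal sialidase, at 140, and Rd3, a gene known from retinal photoreceptors, at 129. Both were picked for naming from this ranking. Stat2 was itself chosen for its spread at 33 °C, so its place in the ranking is a description. In Rd3 the spread was also wide at 42 °C (106-fold), and in Neu1 it was 1.81-fold at 42 °C.

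The genes around Stat2 did not have its wide range at 33 °C. Of 21 other genes within 100 kb, 10 passed the filter on low counts, and 0 of them were called at an edgeR adjusted p of 0.05, against 0.0922% of all features. The log2 fold changes of the 10 ran from -0.47 for Rbms2 to 0.87 for Coq10a, a coenzyme Q binding protein, with edgeR adjusted p-values of 0.386 or more. All 10 had overlapping groups, which is near the share over all features, where 2% had groups that did not overlap. Apof, an apolipoprotein gene on the same strand that ends 406 bases before Stat2, was at 0 counts in every heated library and at 0, 0, 3, 2 and 0 in 33 °C replicates 1 to 5.

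Timeless, a clock and replication factor that lies 17618 bases before Stat2 on the same strand, had 1.01 to 1.81 CPM at 42 °C, against 0.744 to 1.69 CPM at 33 °C. Il23a, an interleukin subunit on the opposite strand 3290 bases past the end of Stat2, had 0.331 to 0.386 CPM at 42 °C. At 33 °C Il23a had 0.364, 0.380, 0.639, 0.715 and 0.248 CPM in replicates 1 to 5, so its highest library was also 33 °C replicate 4. Pan2, a subunit of the PAN deadenylase 10486 bases past the end, had 33.4 to 45.9 CPM at 42 °C, against 34.6 to 50.5 CPM at 33 °C. The citrate synthase gene Cs had 26.6 to 40.1 CPM at 42 °C, against 27.4 to 34.0 CPM at 33 °C. Gls2, Spryd4, Cnpy2 and Ankrd52 had log2 fold changes of -0.21, -0.25, 0.59 and 0.25.

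**Figure D2:**
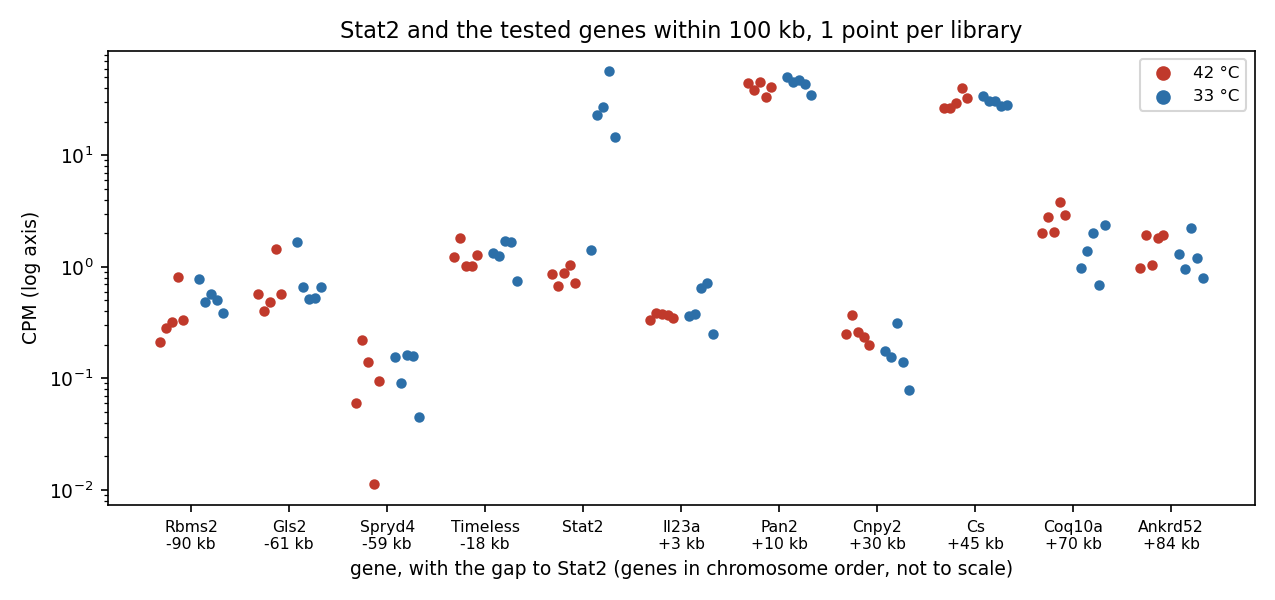
Levels in CPM, on a log axis, of Stat2 and the 10 tested genes within 100 kb, 1 point per library, with 42 °C in red on the left and 33 °C in blue. Stat2 alone splits its 33 °C libraries widely (39.8-fold), and its neighbour Pan2 stays between 33.4 and 50.5 CPM in all 10 libraries.

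The genes whose pattern was most like that of Stat2 varied far less than it did. Over the 10 libraries and 16197 genes with a mean of at least 1 CPM, the highest Pearson correlations of log2(CPM + 0.5) with Stat2 were 0.87 for Ivd, an enzyme of leucine breakdown, 0.87 for Zfp882, a zinc finger gene, 0.86 for Kyat3, a kynurenine aminotransferase, 0.86 for 4930524C18Rik and 0.86 for Kcnj9, a potassium channel subunit. Spearman's rho was 0.92, 0.78, 0.76, 0.78 and 0.76 in the same order. These are the top of a ranking, so no p is given. The points share library and depth, and the libraries form a high and a low set for Stat2. Ivd had 4.36 to 5.34 CPM at 42 °C and 5.07, 7.46, 6.29, 8.17 and 5.43 CPM in 33 °C replicates 1 to 5. Across the 10 libraries the highest of these 5 genes' levels over the lowest was between 1.57 and 2.01, while Stat2 ran between 0.667 and 56.6 CPM. None of the 5 lies on chromosome 10, and by Spearman's rho only Ivd stayed among the first 5.

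Irf9 (ENSMUSG00000002325, chromosome 14, 55603571 to 55610030, plus strand), the DNA-binding partner of STAT2, was barely expressed in either group. At 42 °C the counts were 14, 7, 24, 10 and 20 in replicates 1 to 5, or 0.141, 0.104, 0.238, 0.112 and 0.209 CPM. At 33 °C they were 25, 18, 38, 21 and 16, or 0.276, 0.163, 0.386, 0.224 and 0.180 CPM. The 3 lowest libraries were at 42 °C, but the groups overlapped. The log2 fold change was -0.59 (SE 0.34, 95% interval -1.33 to 0.14, edgeR adjusted p = 0.485 over all features). The highest Irf9 level was in 33 °C replicate 3, and 33 °C replicate 1, the library with low Stat2, had the second highest. Irf9 shares 123 bases on the same strand with the end of Rnf31, a ubiquitin ligase subunit at 1.83 ± 0.321 CPM at 42 °C, against 2.55 ± 0.469 CPM at 33 °C, so some of the few Irf9 reads could be counted from either gene.

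Stat4 (ENSMUSG00000062939, chromosome 1, 51987148 to 52107189, plus strand) was the abundant STAT of these cells. In CPM it had 277, 253, 251, 405 and 333 in 42 °C replicates 1 to 5 and 231, 235, 196, 176 and 366 in 33 °C replicates 1 to 5. The 42 °C libraries were the higher on average and the groups overlapped, since 33 °C replicate 5 was above 4 of the 5 heated libraries. The means were 304 ± 65.4 CPM at 42 °C, against 241 ± 74.1 CPM at 33 °C (SD, n = 5 each). The log2 fold change was 0.33 (SE 0.20, 95% interval -0.11 to 0.78, edgeR adjusted p = 0.496). With 1 library left out it ran from 0.21 without 42 °C replicate 4 to 0.58 without 33 °C replicate 5. In 42 °C replicate 4 and 33 °C replicate 5, the highest Stat4 libraries, the summed round spermatid markers were also highest, at 3952 and 3754 CPM. The part of cell composition in the Stat4 level was not tested.

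The counts of Stat4 may be shared with an overlapping transcript. Gm28177 (ENSMUSG00000101628, chromosome 1, 52077261 to 52156087), a noncoding transcript on the same strand, overlaps 29929 bases of Stat4. Of the 3871 words of 50 bases in Stat4 transcripts, 840 (21.7%) also occur in Gm28177. The ratio of Gm28177 to Stat4 counts lay between 0.365 and 0.396 in all 10 libraries. Summed, the 2 had 419 ± 90.5 CPM at 42 °C, against 334 ± 102 CPM at 33 °C (SD, n = 5 each), so the group means of the sum had the same order. Reads that match both genes, if the counting left them out, are not in this sum.

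Stat3 (ENSMUSG00000004040, chromosome 11, 100885098 to 100939540, minus strand), which carries signals of the IL-6 family and LIF, had a low level in both groups. It had 3.23, 3.74, 3.08, 3.08 and 5.63 CPM in 42 °C replicates 1 to 5 and 3.83, 3.82, 5.601, 4.05 and 2.90 CPM in 33 °C replicates 1 to 5. The highest libraries, 42 °C replicate 5 and 33 °C replicate 3, were nearly equal, and the groups overlapped. The log2 fold change was -0.11 (SE 0.22, 95% interval -0.58 to 0.37, edgeR adjusted p = 0.830), and it was 0.038 without 33 °C replicate 3.

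Stat5a and Stat5b are close copies that carry signals of prolactin, growth hormone and erythropoietin among others. They lie 8626 bases apart on chromosome 11, Stat5b at 100780731 to 100850724 on the minus strand and Stat5a at 100859351 to 100885169 on the plus strand. Stat5a ends within the last 72 bases of Stat3, and the 3 genes together span 158.8 kb. Of the 50-base words in Stat5b transcripts 11.0% occur elsewhere, all of them in Stat5a, and of those in Stat5a transcripts 8.52% occur elsewhere, so reads from these stretches could be counted for either gene.

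Stat5a had 0.874 to 1.30 CPM at 42 °C, with a median of 0.984, and 0.891 to 1.67 CPM at 33 °C, with a median of 1.01. Its log2 fold change was -0.21 (SE 0.22, 95% interval -0.70 to 0.27, edgeR adjusted p = 0.668). Stat5b had 17, 5, 22, 9 and 66 counts in 42 °C replicates 1 to 5, or 0.171, 0.0741, 0.218, 0.101 and 0.691 CPM. At 33 °C it had 22, 21, 59, 22 and 13 counts, or 0.243, 0.190, 0.599, 0.235 and 0.147 CPM. One library in each group, 42 °C replicate 5 and 33 °C replicate 3, stood well above the others. The log2 fold change of Stat5b was -0.16 (SE 0.58, 95% interval -1.41 to 1.10, edgeR adjusted p = 0.913), -0.97 without 42 °C replicate 5 and 0.32 without 33 °C replicate 3.

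Stat6 (ENSMUSG00000002147, chromosome 10, 127642986 to 127660957, plus strand), the factor of IL-4 and IL-13 signalling, lies 609.6 kb before Stat2, was at 1.18 CPM or less in every library and had overlapping groups. It had 0.462, 0.208, 0.258, 0.280 and 1.18 CPM in 42 °C replicates 1 to 5 and 0.463, 0.190, 0.873, 0.341 and 0.575 CPM in 33 °C replicates 1 to 5. Again 42 °C replicate 5 and 33 °C replicate 3 were the highest of their groups. The log2 fold change was -0.02 (SE 0.51, 95% interval -1.13 to 1.09, edgeR adjusted p = 0.987), -0.68 without 42 °C replicate 5 and 0.30 without 33 °C replicate 3. Stat6 overlaps 40 bases of the end of Nab2, a transcriptional corepressor on the opposite strand at 42.5 ± 1.66 CPM at 42 °C, against 49.5 ± 6.93 CPM at 33 °C, and the strand setting of the counting is not given in the sources used here.

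**Figure D3:**
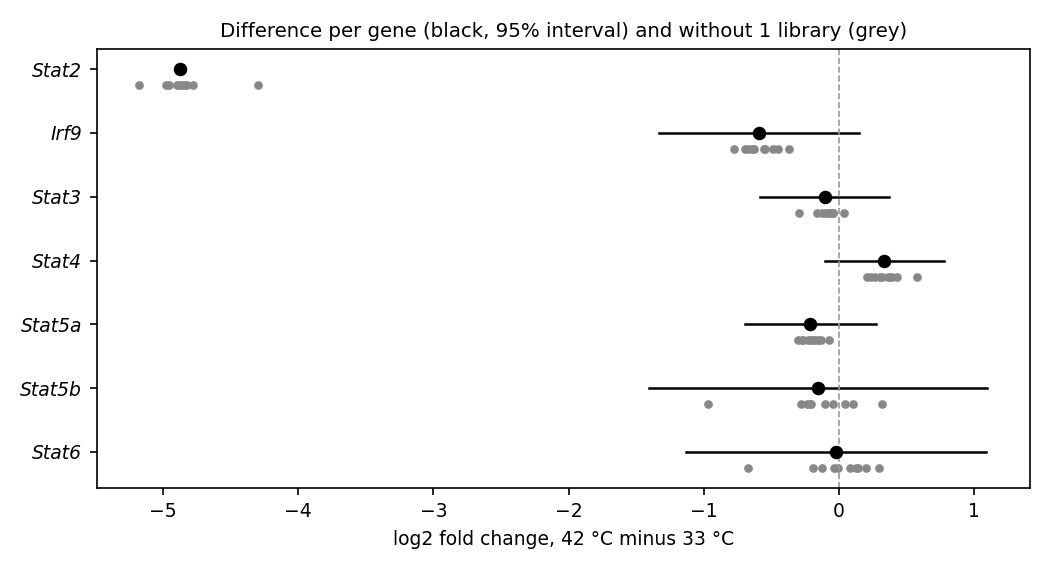
Log2 fold change, 42 °C minus 33 °C, of the 7 members on a linear axis, in black with the 95% interval of the edgeR fit, and in grey without each library in turn. Stat2, at -4.87, has no interval because it was chosen for this value, and the intervals of the other 6 members include 0.

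Of the 6 members other than Stat2, 0 were called higher and 0 lower in the edgeR test, against 0.0884% of all features called higher. The 1 feature called lower was Stat2, chosen for its values, so that share (0.00384%) is no background for the other 6. At an unadjusted edgeR p under 0.05 the 6 members also gave 0 calls, against 2227 higher and 764 lower of the 26025 features. DESeq2 called 0 of the 6, against 257 higher and 31 lower of all features. With limma voom it was 0 of the 6, against 124 higher and 29 lower. For only 6 genes, 0 calls is near these shares. The 6 log2 fold changes lay between -0.59 and 0.33, and the median over all features was -0.010. The intervals were wide for the members of lowest count: the fold for Stat5b may lie between 0.377 and 2.14, that for Stat6 between 0.457 and 2.12, and that for Irf9 between 0.397 and 1.10.

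Stat5b, Stat6, Stat3, Stat5a and Irf9 had their group's highest or near-highest level in libraries where the Sertoli, stromal and Leydig cell markers were also highest. Stat3, Stat5b and Stat6 were highest in 42 °C replicate 5 and second in 33 °C replicate 3. Summed Sertoli cell markers were highest in the same 2 libraries, at 27.1 and 24.3 CPM, against 10.6 to 20.6 CPM in the other 8. Peritubular and stromal markers summed to 25.2 CPM in 42 °C replicate 5 and 30.9 CPM in 33 °C replicate 3, against 16.7 to 20.5 CPM in the others. Markers of Leydig cells, the steroid-making cells, summed to 8.83 CPM in 42 °C replicate 5 and 23.3 CPM in 33 °C replicate 3, against 3.27 to 6.76 CPM in the others. Markers of elongating spermatids, a later germ cell stage, also peaked in these 2 libraries, at 11079 and 8130 CPM, against 5128 to 7976 CPM. Other somatic lists did not peak in both. Macrophage and leukocyte markers were 9.64 CPM in 42 °C replicate 5 and 11.2 CPM in 33 °C replicate 3, under the 11.6 CPM of 42 °C replicate 2 and the 12.05 CPM of 33 °C replicate 1. Endothelial markers were highest in 42 °C replicate 5, at 29.3 CPM, but at 23.6 CPM in 33 °C replicate 3 they were under the 26.04 CPM of 33 °C replicate 5. Red blood cell markers were highest in 33 °C replicate 3, at 1.005 CPM, and at 42 °C in replicate 2, at 0.771 CPM. The part of other cells in the low STAT levels was not tested.

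**Figure D4:**
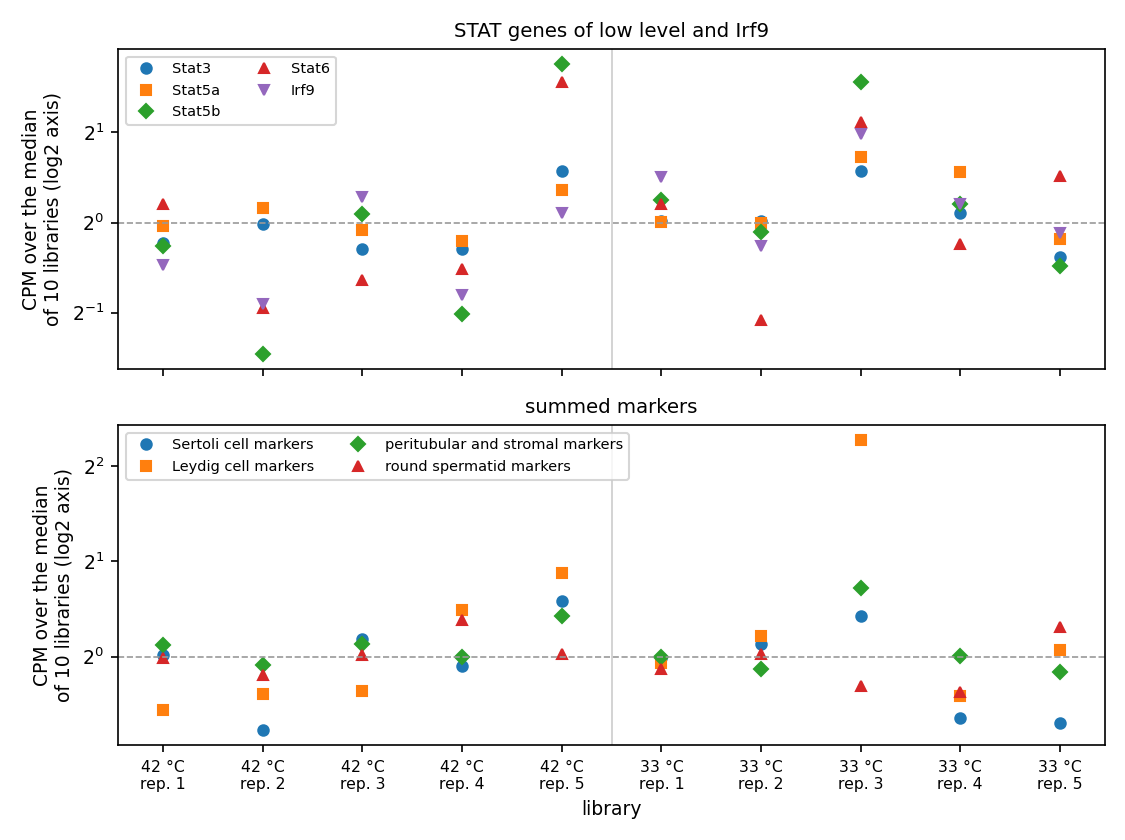
Levels of 5 members (upper panel) and summed cell type markers (lower panel) in each library, as CPM over the median of the 10 libraries on a log2 axis, with 42 °C libraries on the left. Stat5b reaches 3.39 times the median in 42 °C replicate 5 and 2.93 times in 33 °C replicate 3, and Leydig cell markers reach 1.84 and 4.84 times in the same libraries.

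Stat2 was not highest in these libraries. Its level was the second highest of the 10 libraries in 33 °C replicate 3, at 26.9 CPM, and was 0.722 CPM in 42 °C replicate 5. Its lowest library at 33 °C, replicate 1, had 18.0 CPM of Sertoli, 18.7 CPM of stromal and 4.59 CPM of Leydig cell markers, and its highest, replicate 4, had 11.6, 18.8 and 3.62 CPM. Macrophage and leukocyte markers were highest in replicate 1, at 12.05 CPM, against 9.57 CPM in replicate 4. Markers of spermatocytes, an earlier stage, summed to 908 CPM in replicate 1 and 1115 CPM in replicate 4. Hspa1a in 33 °C replicate 1 was 0.232 CPM, within the range of the other libraries at 33 °C.

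Levels per length set Stat4 far above the rest of the family. Divided by the length of all annotated exons (GENCODE M21), the mean level at 42 °C was 78.4 ± 16.9 CPM per kb for Stat4, 0.394 ± 0.114 for Stat3, 0.147 ± 0.0235 for Stat5a, 0.141 ± 0.0242 for Stat2, 0.109 ± 0.0921 for Stat6, 0.0453 ± 0.0456 for Stat5b and 0.0298 ± 0.0111 for Irf9 (SD, n = 5). At 33 °C it was 62.2 ± 19.1 CPM per kb for Stat4, 4.13 ± 3.45 for Stat2, 0.424 ± 0.103 for Stat3, 0.170 ± 0.0482 for Stat5a, 0.111 ± 0.0586 for Stat6, 0.0510 ± 0.0327 for Stat5b and 0.0456 ± 0.0166 for Irf9. In both groups Stat4 did not overlap with the next gene, nor did Stat3 with Stat5a. At 42 °C the neighbours from Stat5a down to Irf9 overlapped in their ranges, and at 33 °C so did Stat2 with Stat3 and the neighbours from Stat5a down. Among 24852 tested genes with a length, 96.9% had a lower level per kb than Stat4 at 42 °C and 95.7% at 33 °C. For Stat2 the share was 13.5% at 42 °C and 67.5% at 33 °C, and for Irf9 it was 1.51% at 42 °C and 4.10% at 33 °C.

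Among the other genes of JAK-STAT and interferon signalling, 1 passed the test. In 8 lists of receptors, ligands, kinases, regulators and targets, 120 of 218 genes were tested, of which 1 was called higher and 0 lower in the edgeR test, 0.833% of those tested, against 0.0922% of all features. Of the 120, 42 were positive and 78 negative in log2 fold change. Their median was -0.10, and over all features it was -0.010 with 48.9% positive. Non-overlapping groups were seen for 3 of the 120 on the higher and 1 on the lower side, against 1.32% and 0.680% of all features. They were Apol9a, Ifi207 and Socs1, and Pml (log2 -0.46, edgeR adjusted p = 0.386), named after their values were seen. The lists were chosen with earlier results on these samples known.

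Ligands were mostly silent: 39 of 49 failed the filter, with at most 25 counts in a library, and the 10 that were tested had 0 calls and a median of -0.11. The type I interferon gene Ifnb1 and the type II gene Ifng were among those not tested. Il9 had a log2 fold change of -0.70 (SE 0.26), Ctf1 of -0.36 (SE 0.25) and Il11 of 0.21 (SE 0.16). Of 6 interferon receptor genes 4 were tested and 0 were called, with a median of -0.20. Ifnar1, a chain of the type I receptor, had 5.74 ± 0.910 CPM at 42 °C, against 7.40 ± 1.11 CPM at 33 °C (log2 -0.37, edgeR adjusted p = 0.426). Ifnlr1, a chain of the type III receptor, had 1.93 ± 0.381 CPM at 42 °C, against 2.67 ± 0.353 CPM at 33 °C (log2 -0.47, edgeR adjusted p = 0.397), and Ifngr2 had a log2 fold change of 0.10.

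Of 34 other cytokine receptors 23 were tested, with 0 calls and a median of -0.06. Csf2rb2, the mouse IL-3 receptor beta chain, had 2.12 ± 1.12 CPM at 42 °C, against 0.867 ± 0.432 CPM at 33 °C (log2 1.29, edgeR adjusted p = 0.348), its relative Csf2rb had a log2 fold change of 0.57 (SE 0.26) and Il9r of -0.31 (SE 0.17). Il6ra, a chain of the IL-6 receptor, had a log2 fold change of 0.93 in edgeR (SE 0.53, adjusted p = 0.486) and was called higher by limma voom alone (log2 1.99, adjusted p = 0.0388). It is named for that call, after its values were seen. All 4 JAK kinases were expressed and 0 were called. Tyk2, the kinase of interferon receptors, had 12.02 ± 3.82 CPM in heated libraries against 12.44 ± 3.27 CPM at 33 °C. Jak3 had 9.07 ± 2.06 CPM at 42 °C, against 10.8 ± 2.12 CPM at 33 °C. Jak1 had 2.51 ± 0.639 CPM at 42 °C, against 2.59 ± 0.541 CPM at 33 °C, and Jak2 had 0.637 ± 0.114 CPM at 42 °C, against 0.685 ± 0.0874 CPM at 33 °C. Of 8 other IRF factors 5 were tested and 0 called, with Irf2 at a log2 fold change of 0.33 (SE 0.22), Irf4 at -0.59 (SE 0.44) and Irf1 at -0.54 (SE 0.50).

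Of 20 negative regulators 18 were tested and 0 were called, with 15 of the 18 on the negative side and -0.15 as their median. Socs1, a feedback inhibitor of JAK kinases, had 2.29, 3.72, 2.27, 5.04 and 3.44 CPM in 42 °C replicates 1 to 5 and 1.62, 1.60, 2.24, 1.21 and 1.76 CPM in 33 °C replicates 1 to 5. The groups did not overlap, though by a small margin, and the log2 fold change of 0.99 (SE 0.25) did not pass in edgeR (adjusted p = 0.263) and passed in DESeq2 (adjusted p = 0.0171). Socs3, the inhibitor induced by STAT3, had 0.168 to 0.272 CPM at 42 °C, against 0.225 to 1.50 CPM at 33 °C, highest in 33 °C replicate 3 (log2 -1.54, SE 0.49, edgeR adjusted p = 0.369), and Ptpn6 had a log2 fold change of -0.36 (SE 0.19). Of 31 targets of STAT3, STAT5 and STAT6, 25 were tested and 0 called, with a median of -0.14. Fos, an immediate-early gene, had 0.119 to 0.712 CPM at 42 °C, against 0.267 to 3.67 CPM at 33 °C (log2 -2.19, SE 0.67, edgeR adjusted p = 0.359), and was lower in DESeq2 (adjusted p = 0.0465). Its highest library was 33 °C replicate 3, the library of highest Leydig and stromal markers, and the next at 33 °C had 1.11 CPM. The part of that library in the Fos difference was not tested.

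Interferon-stimulated genes, the targets of STAT2 and IRF9, were not ordered like Stat2 in their summed level. Of 77 genes 39 were tested, 17 on the positive and 22 on the negative side, and their median log2 fold change was -0.05. Their summed level was 340 to 416 CPM at 42 °C, against 367 to 467 CPM at 33 °C. In 33 °C replicates 1 to 5 the sum was 441, 467, 367, 388 and 454 CPM, so replicate 1, with 1.42 CPM of Stat2, was above replicate 4, with 56.6 CPM of Stat2. The 2 most abundant genes of the list made up much of this sum, so it says little about the rest. In the same libraries Znfx1 had 165, 188, 128, 134 and 172 CPM, in the order of the sum, and Dhx58 had 82.9, 91.3, 72.2, 87.3 and 72.7 CPM. The only call was Apol9a, an apolipoprotein L gene, which rose at 42 °C in the edgeR test (log2 3.50, SE 0.42, adjusted p = 0.0106). It had 24, 36, 27, 47 and 26 counts at 42 °C and 1, 4, 4, 2 and 4 counts at 33 °C, with no overlap, and its reads may be shared with its near-identical copy Apol9b.

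Ifi207, of the interferon-inducible p200 family, had 1.79, 1.08, 2.01, 0.224 and 0.241 CPM in 42 °C replicates 1 to 5 and 0.0883, 0.145, 0.122, 0.0960 and 0.113 CPM in 33 °C replicates 1 to 5. The groups did not overlap, but the heated libraries fell into 3 high and 2 low ones, and the gene did not pass in edgeR (log2 3.23, SE 0.61, adjusted p = 0.113), while DESeq2 called it (adjusted p = 1.72e-05). Members of that family are similar in sequence, so the division of reads is uncertain. Ddx58, the RNA sensor RIG-I, had 3.14 ± 0.956 CPM at 42 °C, against 1.92 ± 0.398 CPM at 33 °C (log2 0.70, edgeR adjusted p = 0.370), and Uba7 had a log2 fold change of 1.25 (SE 0.45).

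**Figure D5:**
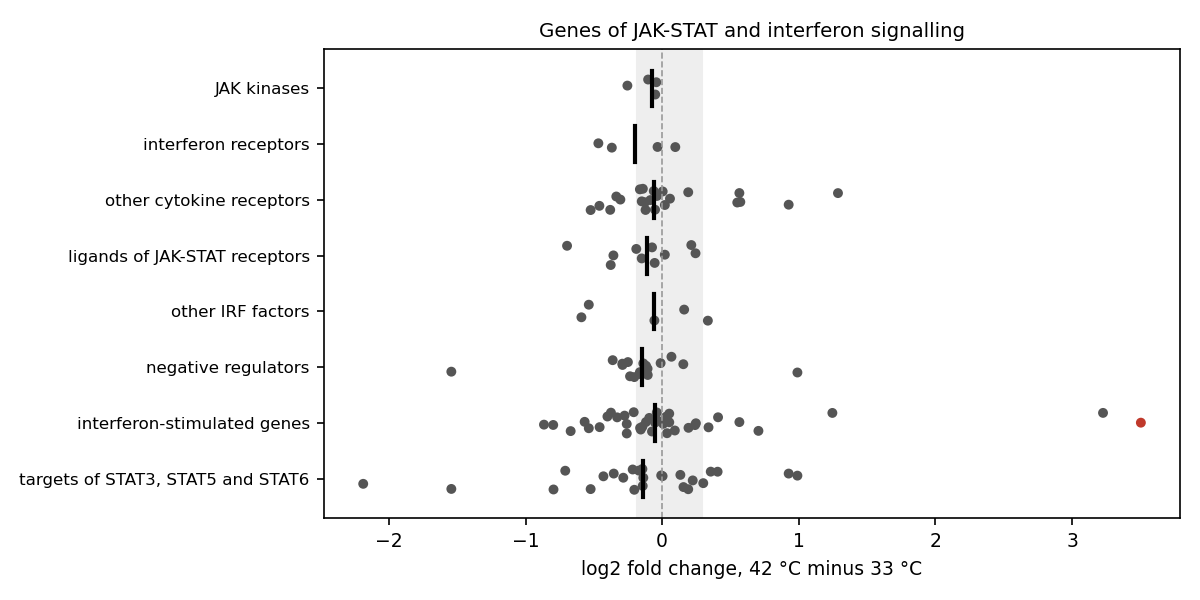
Log2 fold changes, 42 °C minus 33 °C, of the tested genes of 8 lists on a linear axis, 1 point per gene, with black bars at the medians and grey shading for the middle 50% of all 26025 features. The medians lie between -0.20 and -0.05, and the 1 called gene, Apol9a at 3.50, is in red.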

How the data were processed

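Round spermatid RNA from 10 mice was analysed, 5 at 42 °C and 5 at 33 °C. The authors deposited raw read counts per gene and TE subfamily, with no normalization, as judged from whole numbers of unequal sums. Per the submitters' processing notes, DRAGEN, cutadapt and Trim Galore are named as tools and GRCm38 and mm10 as builds, with no versions or roles. Sources used here do not give the counting tool, its strand setting or its handling of multi-mapped reads. Gene positions matched GENCODE M21 for 99.4% of 55141 shared genes.

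From the counts, CPM with TMM factors and edgeR 4.0.16 quasi-likelihood tests (R 4.3.3) of temperature, with no other term, were computed over 26025 features kept by filterByExpr (minimum count 10, minimum total 15). Benjamini-Hochberg adjustment ran across this whole set, with a threshold of 0.05. At this depth, members under 1 CPM rest on few reads per library. The fit was first tested on simulated data. DESeq2 1.42.0 and limma 3.58.1 were alternatives. The members, the lists and the tests were chosen with earlier results of these data known. Named genes were the members, the 5 genes most like Stat2, its tested neighbours within 100 kb, and per list the calls and up to 3 more of smallest p, the most abundant gene of each marker list, and Hspa1a and Hspa1b. No 2 libraries of a group were alike within sampling noise (lowest chi-square per degree of freedom 13.9).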

Additional observations from a re-analysis of the deposited data

Results flagged for a closer look

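In 4 of 14 groups of 5 libraries (7 members, 2 temperatures) 1 library stood far from the others. For independent normal values chance flags about 1 in 20. The 14 groups share the same libraries and some rest on low counts, so 4 of 14 cannot be set against that rate. Stat3 had 5.63 CPM in 42 °C replicate 5, and the next library at 42 °C had 3.74 CPM. Stat6 had 1.18 CPM in that library, with the next at 0.462 CPM, and Stat5b had 0.691 CPM there, with the next at 0.218 CPM. Stat5b also had 0.599 CPM in 33 °C replicate 3, with the next library at 33 °C at 0.243 CPM. Without both libraries, a choice made after seeing the data, the log2 fold changes were -0.15 for Stat3, -0.50 for Stat5b and -0.36 for Stat6, none past the edgeR threshold (lowest adjusted p 0.608).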

How the results depend on the processing

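The log2 fold change of Stat2 kept its sign in 19 alternatives, from -5.18 to -4.30 when 1 library was left out and -3.15 with limma voom. Stat2 was chosen for these values and its groups did not overlap, so leaving out 1 library could not reverse the sign. The other 6 members had 0 calls in every alternative that tested them, and Stat4 and Irf9 kept their signs. Stat3, Stat5b and Stat6 changed sign. With 1 library left out, Stat3 ran between -0.30 and 0.038 (reversed without 33 °C replicate 3), Stat5b between -0.97 and 0.32 and Stat6 between -0.68 and 0.30. Stat5b was reversed without 42 °C replicate 2 (0.0997), 42 °C replicate 4 (0.044) or 33 °C replicate 3 (0.32). Stat6 was 0.0075 with TMM over genes, 0.0071 with size factors of DESeq2, 0.00099 with library totals, 0.024 with no filter, 0.0031 with DESeq2 and 0.061 with limma voom. It was 0.20, 0.14 and 0.12 when 42 °C replicate 2, 3 or 4 was dropped, and 0.30 and 0.080 when 33 °C replicate 3 or 5 was. With a mean of at least 1 CPM, Stat5b, Stat6 and Irf9 were not tested. The cause was not tested. Depth limits the lowest members most: Irf9 had 7 to 38 counts in a library.

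Over all features, 23 were called higher and 1, Stat2, was called lower. Stat2 was chosen for its values, so its call is a description and no test. The counts were 15 and 1 with library totals, 73 and 3 with no filter, 2 and 0 with a mean of at least 1 CPM, 257 and 31 with DESeq2, 124 and 29 with limma voom, and 14 and 0 without 42 °C replicate 5 and 33 °C replicate 3. Leaving out 1 library gave 10 to 21 higher and 0 to 2 lower, with 0 lower whichever library at 42 °C was left out. Of the pathway genes, 1 was called higher and 0 lower. This became 2 with no filter, 0 with a mean of at least 1 CPM, 2 with limma voom (Apol9a and Il6ra), and 3 higher and 1 lower with DESeq2. Leaving out 1 library gave 1 to 2 higher. Apol9a was the call in each of those 10 fits, and Ifi207 was added without 42 °C replicate 4 or 5.

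Labels number replicates 1 to 5 in both groups, but same-numbered libraries did not deviate together (correlations from -0.60 to -0.11). With the replicate number as a block, 4 features were higher and 0 lower, 0 pathway genes were called, so Apol9a lost its call, and Stat2 had -4.36.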
